A study of Oncorhynchus kisutch with 206 samples.

Results

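The brains of coho salmon (Oncorhynchus kisutch) caught in fall off the west coast of Vancouver Island were compared between 2 years, 2009 and 2008. The fish were taken by their labels for season, place and year, which gave 7 fish of 2009 and 17 of 2008, 24 fish beside 182 of other groups in the series. The series measured gene expression in the brain across life stages from river parr and smolts to postsmolts caught at sea in spring, summer, fall and winter. Each array carried the brain RNA of 1 fish in one dye against a pool of brain RNA from all fish in a second dye, and no array had the dyes exchanged. Both groups were postsmolts caught at sea, with no treatment named in the labels, and were of mixed origin, sex and stock. Among the 2009 fish, 6 were wild and 1 came from a hatchery, and 5 were female and 2 male. Among the 2008 fish, 12 were wild and 5 came from hatcheries, and 7 were female and 10 male. The stock region named Puget_Sound gave 4 of the fish of 2008, Columbia and Washington 3 each, North and S_Main 2 each, and ECVI, Oregon and Chilliwack_R 1 each. In 2009 ECVI and Oregon gave 2 fish each and Columbia, North and Puget_Sound 1 each. By their positions, 2 of the fish of 2009, numbers 3511 and 3712, were caught away from the open west coast. They carry the same place label, but fish 3511 came from the strait south of the island and fish 3712 from its north end. Fish 260 of 2008, at longitude -124.882, lay east of all others of its year but was not set apart in this way.

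Coho salmon leave their rivers as smolts and feed in coastal waters through their first summer and fall, a period in which growth before winter is thought to bear on survival. The brain takes part in this through appetite, the pituitary hormones and the response to stress and temperature. Food, temperature and the mix of stocks on a coast differ from year to year, and a comparison of the same season and coast in 2 years asks how much of the brain's expression differs between years. The array's probes carry only position codes in the sources used here, so no gene is named, and neither brain markers nor lists of genes for growth, stress or immunity could be read. The values are deposited log ratios, likely log2 of fish over pool, so a value of 1 stands for a level about 2-fold that of the pool if that reading holds.

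The fish of 2009 were longer on average, but the difference did not pass a test. Fork length was 24.6, 29.4 and 32.5 cm at the lowest, median and highest fish of 2009, and 16, 23.4 and 32.8 cm in 2008. The means were 29.4 ± 2.66 cm (SD, n = 7) and 25.5 ± 4.97 cm (SD, n = 17), a difference of 3.91 cm with p = 0.0656 in a two-sided exact permutation test and 0.197 after adjustment over the 6 measures compared between the years. The fish of 2008 fell into a long class of 7 fish between 28.6 and 32.8 cm and a short class of 10 fish between 16 and 23.5 cm, whereas 6 of the 7 fish of 2009 were between 28.2 and 32.5 cm. All 5 hatchery fish of 2008 belonged to the short class. Mass was 336 ± 95.3 g in 2009 and 228 ± 127 g in 2008 (exact permutation p = 0.058, adjusted 0.197). Condition, the mass for a given length, was 1.28 ± 0.111 and 1.23 ± 0.0799 (100 times the mass in g over the cubed length in cm), with an exact permutation p of 0.237.

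Empty values and the spread of the arrays did not differ detectably between the years. Empty values made up 37.1 ± 7.13% of the probes on the 2009 arrays and 33.5 ± 6.78% on the 2008 arrays (exact permutation p = 0.251), and the SD of the values on an array was 0.80 ± 0.131 and 0.874 ± 0.169 (exact permutation p = 0.311). The 11 control features with 3 or more values a side were all lower in 2009, with a median difference of -0.22 (log2) and a range from -0.46 to -0.01, which was not tested. The 24 arrays lay on 17 slides, 11 with fish of 2008 and 6 with fish of 2009, and no slide held both years. Year and slide therefore cannot be told apart within these fish, except through slides that also carried other fish.

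No probe passed the test for a difference between the years. Of 43630 probes, 29006 had 3 or more values a side, and 0 of them (0%) passed an adjusted p of 0.05 in limma with the slide as a random block. The smallest adjusted p was 0.182, and with fish 1012 of 2008 left out 1 probe was called. At an unadjusted p under 0.05 there were 2188 probes (7.54%), of which 1355 were higher and 833 lower in 2009. The fitted year differences had a median of 0.023 and a median size of 0.225 (log2), and 3013 probes (10.4%) had a fitted difference of at least 1.5-fold.

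The precision of these differences limits what the absence of calls says. The median SE was 0.291 (log2), and the 95% interval reached 0.602 to either side for the median probe, from 0.428 at the 10th to 1.03 at the 90th percentile. For 18594 probes (64.1%) the whole interval lay within 2-fold, and for 3914 (13.5%) within 1.5-fold. For most probes a difference of more than 1.5-fold in one direction or the other was therefore not excluded. Arrays on the same slide had residuals with a correlation of 0.703, and the fit gave fish that share a slide less weight accordingly.

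**Figure D1:**
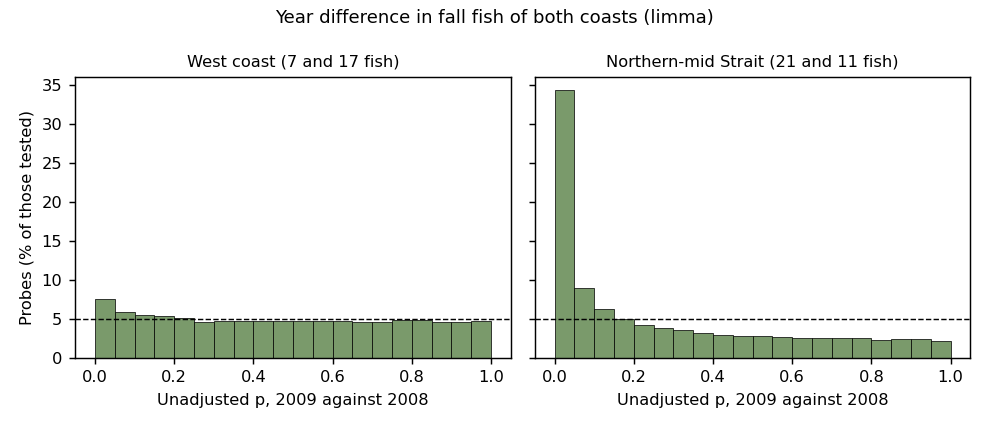
Share of tested probes (%) by unadjusted p in steps of 0.05 for 2009 against 2008, in fall fish of the west coast (left, 7 and 17 fish) and of the northern-mid Strait (right, 21 and 11 fish). The dashed line at 5% is an even spread. The lowest step holds 7.54% of the probes on the west coast and 34.3% in the Strait.

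The 2 probes of largest positive and the 2 of largest negative t are described here, although none of the 4 passed the adjusted threshold and they were taken from the ends of the distribution. C168R022 stood at -4.78, -4 and -1.76 (lowest, median and highest log2 ratio) in 2008 and at -2.87, -2.07 and -1.11 in 2009. All 7 fish of 2009 lay above the 2008 median, and 2 of them lay above every fish of 2008. The difference was 2.02 ± 0.367 (log2, SE, limma adjusted p = 0.182).

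C214R148 stood at -1.61, -0.79 and 0.05 in 2008 and at 0.12, 0.35 and 0.51 in 2009. It was the only probe, of 17477 with a value on all 24 arrays (0.00572%), at which every fish of 2009 lay above every fish of 2008, and at no probe did every fish of 2009 lie below. Its difference was 1.12 ± 0.209 (log2, SE, limma adjusted p = 0.182). The spread among the fish of 2009 was small, at an SD of 0.14 against 0.38 in 2008. In the class of 28 cm or more, the fish of 2008 reached from -0.73 to 0.05, and in the short class from -1.61 to -0.48, so the long fish of 2008 were nearer to those of 2009. The fit confined to fish of 28 cm or more gave a difference of 0.76 in place of 1.12.

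C265R071 was at -0.69, -0.17 and 0.68 in 2008 and at -2.35, -0.80 and -0.47 in 2009, with 4 of the 7 fish of 2009 below every fish of 2008. Its difference was -1.01 ± 0.231 (log2, SE, limma adjusted p = 0.389). The lowest value belonged to fish 3511, 1 of the 2 caught away from the open west coast. C053R155 was at 0.04, 0.51 and 0.95 in 2008 and at -0.98, -0.06 and 0.30 in 2009. Its difference was -0.78 ± 0.184 (log2, SE, limma adjusted p = 0.392), and 5 of the 7 fish of 2009 lay below all of 2008.

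**Figure D2:**
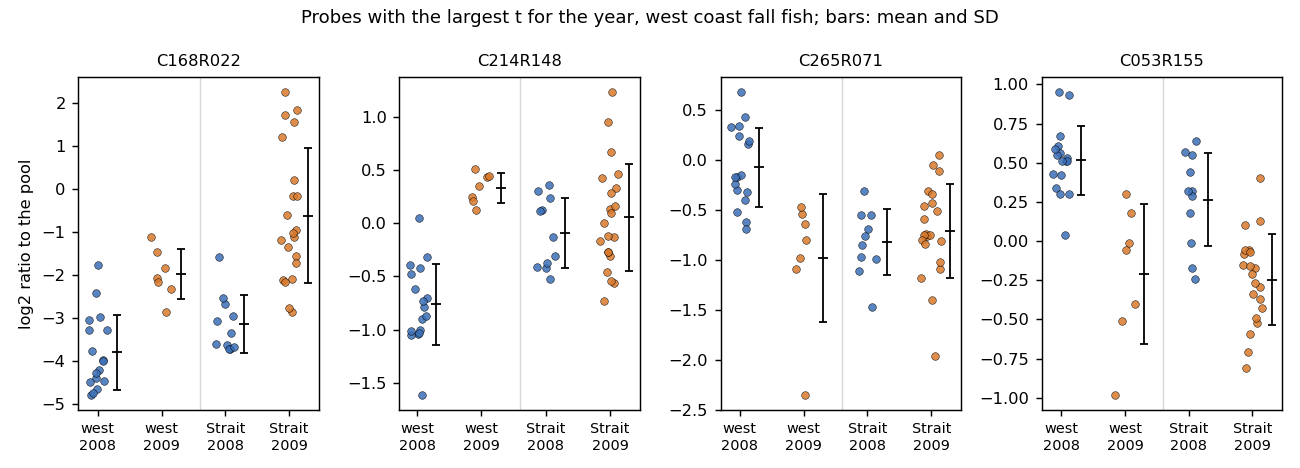
Log2 ratio to the pool of the 4 probes with the largest t for the year, by fish, in fall fish of the west coast and the northern-mid Strait in 2008 (blue) and 2009 (orange); bars give mean and SD. For C214R148 the 7 west coast fish of 2009 (0.12 to 0.51) lie above all 17 of 2008 (-1.61 to 0.05), while the Strait fish of both years overlap.

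Wild fish alone gave a different count. Among the 6 wild fish of 2009 and the 12 of 2008, 26 of 28571 probes (0.091%) passed the adjusted threshold in limma with the slide as a random block, all 26 of them higher in 2009. Their differences ran from 1.14 to 2.88 with a median of 2.05 (log2), and the smallest adjusted p was 0.00282. At an unadjusted p under 0.05 there were 2804 probes (9.81%). With fork length as a term 16 probes were called, all of them among these 26. With sex as a term 3 were called, and the wild fish were unevenly split by sex, with 5 females of 6 in 2009 and 4 females of 12 in 2008. With 1 wild fish left out, 5 to 40 probes were called. The count fell to 5 without fish 3534, 6 without 3530, 10 without 298 or 1016, 16 without 358 and 17 without 363, and rose to 40 without 1015 or 3537.

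C094R044, which had the largest t in the wild fish, stood at -3.09, -2.40 and -1.35 (lowest, median and highest log2 ratio) in the 12 wild fish of 2008 and at -1.03, -0.31 and 0.54 in the 6 of 2009. The wild fish of the 2 years did not overlap. Its difference was 2.11 ± 0.281 (log2, SE, limma adjusted p = 0.00282), against 1.51 ± 0.866 (adjusted p = 0.741) over all 24 fish. The 5 hatchery fish of 2008 reached from -2.06 to 3.58, above and below every wild fish of 2009.

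C089R155 stood at -3.82, -2.72 and -1.67 in the wild fish of 2008 and at -0.85, 0.10 and 0.67 in those of 2009, again without overlap. Its difference was 2.76 ± 0.373 (log2, SE, limma adjusted p = 0.00282). In the hatchery fish of 2008 it reached from -1.26 to 4.38, and the 1 hatchery fish of 2009 stood at -1.88. Over all 24 fish the difference was 1.94 ± 0.937 with an adjusted p of 0.662.

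The probes called in wild fish were summarised for each fish. Over the 19 of the 26 that had a value on all 24 arrays, the mean log2 ratio was -3.16, -2.78 and -1.67 (lowest, median and highest) in the wild fish of 2008 and -1.14, -0.74 and 0.28 in the wild fish of 2009. These probes were chosen on the same wild fish, so the gap between them is a description. In the hatchery fish, which did not enter the choice, the mean was -1.91, -1.76, -1.32, -0.08 and 2.96 in 2008 and -1.65 in the 1 fish of 2009. The highest level of all 24 fish, 2.96, thus belonged to a hatchery fish of 2008, number 359, and the hatchery fish of 2009 stood within the range of those of 2008. By sex, the 4 wild females of 2008 had a median of -2.2 (-3.12 to -1.67). The 8 wild males of that year had a median of -2.88 (-3.16 to -2.26). In 2009 the 5 wild females had a median of -0.59 (-0.94 to 0.28), and the 1 wild male stood lowest at -1.14. The females thus had the higher median in both years. The part of sex in this mean level was not tested.

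Elsewhere in the series the same 19 probes varied widely within groups. The mean lay between -3.05 and 2.33 in the 8 west coast fish of summer 2009 and between -2.91 and 1.06 in the 6 of winter 2009. In the northern-mid Strait it lay between -2.48 and -1.12 in fall 2008 and between -2.69 and 0.44 in fall 2009. The levels of the wild fall fish of 2009 lay inside both of these west coast ranges, as did most of those of 2008. The median was -0.74 in the wild fall fish of 2009 and -2.78 in those of 2008. It was -1.99 in the summer and -2.27 in the winter fish of the west coast.

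**Figure D3:**
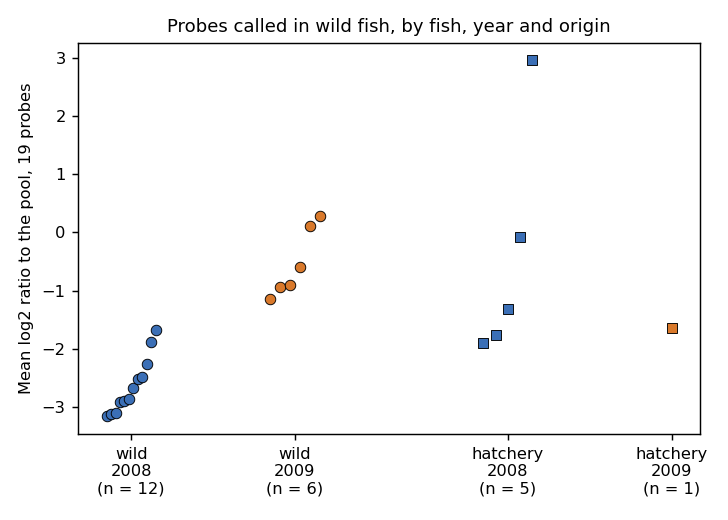
Mean log2 ratio to the pool over 19 probes called in wild fish, for each of the 24 fish by origin and year (circles wild, squares hatchery, blue 2008, orange 2009). The 6 wild fish of 2009 (-1.14 to 0.28) lie above the 12 wild fish of 2008 (-3.16 to -1.67), and the hatchery fish of 2008 reach from -1.91 to 2.96.

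Fish of the same year were not detectably more alike than fish of different years. Over the 17477 probes with a value on all 24 arrays, the correlation between 2 fish averaged 0.325 within 2009 (21 pairs, 0.0169 to 0.807), 0.371 within 2008 (136 pairs, -0.3 to 0.895) and 0.344 between the years (119 pairs, -0.196 to 0.807). The mean within years exceeded that between years by 0.0205, with p = 0.558 in a two-sided exact permutation test over 346104 regroupings of the fish. Of the 7 fish of 2009, 6 were most like a fish of 2008, and no fish of 2008, the larger group, was most like one of 2009. For 8 of the 17 fish of 2008 the most alike fish lay on the same slide, where the other year was never present. The 8 pairs of fish on the same slide had correlations of 0.699 to 0.895 with a mean of 0.788, against 0.343 for the 268 pairs on different slides. Slide mates were in part also alike in origin and size. On different slides, fish 300 and 334 reached 0.842 and fish 298 and 1020 reached 0.822, each pair alike in origin and size class. The part of the slide in these correlations was not tested. All same-slide pairs counted as pairs within a year. Pairs within a year on different slides averaged 0.342, against 0.344 between the years. The permutation test regrouped single fish and took no account of slides.

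**Figure D4:**
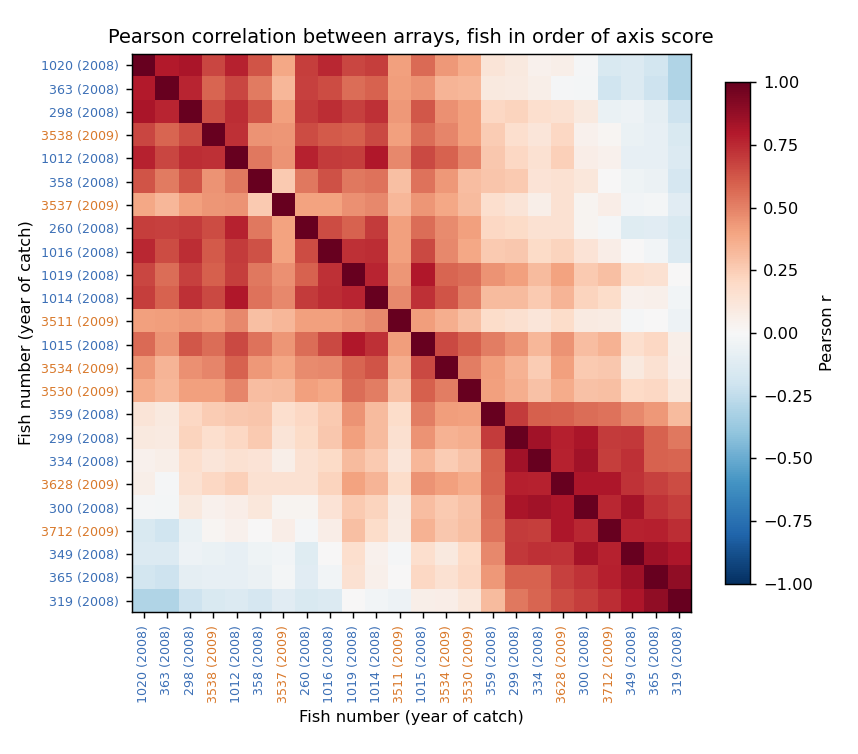
Pearson correlation between the arrays of the 24 fish over 17477 probes, with fish in order of their score on the main axis of the series (blue 2008, orange 2009). A block of 9 fish at the lower right, 7 of 2008 and 2 of 2009, correlates more within itself than with the other 15.

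The blocks follow the main axis of variation of the series. This axis was taken as the first principal component of the 150 arrays outside the fall groups of the west coast and the northern-mid Strait, over 10942 probes with a value on all arrays, and its sign has no meaning. It was added after the data had been seen. It held 32.3% of the variance of those arrays and 42% of that of the 24 west coast fall arrays. Scores above 0 were found in 7 of the 17 fish of 2008 and 2 of the 7 fish of 2009. The score averaged -5.64 ± 37.7 in 2009 and -1.35 ± 55.1 in 2008 and did not differ by year in an exact permutation test (p = 0.854).

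Within 2008 the score went with origin and size, which overlap in these fish. All 5 hatchery fish scored above 0, from 2.46 to 111.14, and all 7 wild fish of 28 cm or more scored below 0, from -63.17 to -22.24. Among the 5 short wild fish, which range from 16 to 23.2 cm, 2 scored above 0. In 2009 the fish above 0 were the wild fish 3628 at 32.39 and the hatchery fish 3712 at 58.95.

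Among the west coast fall fish, no slide held fish both above and below 0, so the side of 0 also went with the slide. With fish of other groups counted, scores on 1 slide were alike in some cases and apart in others. Both fish of 2009 above 0 shared a slide with 2 Strait fall fish of 2009, at 26.31 and 55.26, a group with a median of 29.71 over all its slides. On another slide the west coast fish 3538 of 2009 scored -42.58 beside a Strait fall fish of 2009 at 26.41. The 2 highest scores of 2008, 111.14 and 100.88, shared a slide and were the arrays with the most empty values, at 49.48 and 46.82%. On that slide a Strait winter fish of 2009 also scored high, at 102.44, and a Strait fall fish of 2008 scored -38.66. The part of the slide and of the empty values in the score was not tested.

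**Figure D5:**
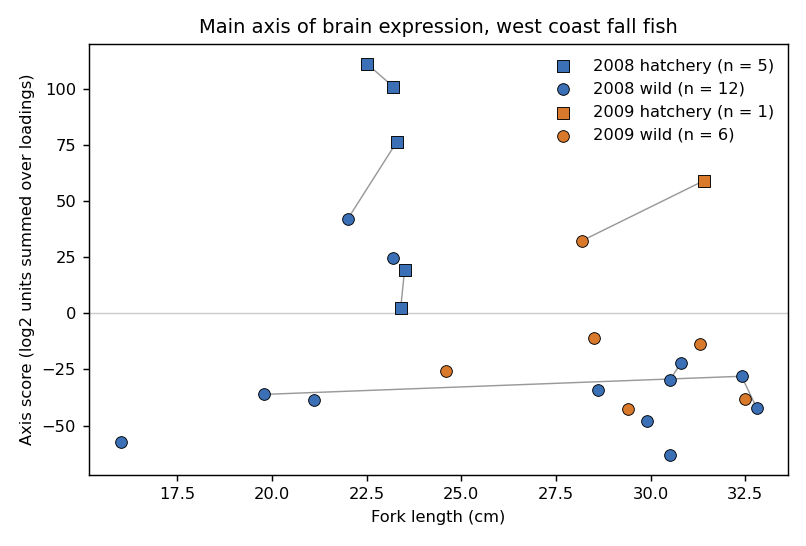
Score on the main axis of the series (log2 units summed over the probes' loadings) against fork length (cm) for the 24 fish, by year (colour) and origin (circles wild, squares hatchery); grey lines join fish on the same slide. All 5 hatchery fish of 2008 and 2 short wild fish of that year lie above 0, and all 7 fish of 2008 of 28 cm or more lie below 0.

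With the axis score as a term, 2 of 29006 probes (0.0069%) passed the adjusted threshold in limma, and both were higher in 2009. They were C168R022, at 1.98 (log2, adjusted p = 0.0477), and C214R148, at 1.11 (adjusted p = 0.0477), so the size of both differences stayed near 2.02 and 1.12. In wild fish alone their differences were 1.98 (adjusted p = 0.0505) and 1.09 (adjusted p = 0.0768), so neither was among the 26 probes called there.

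Body length was tested in 2 ways. At equal fork length, 0 of 29006 probes (0%) differed between the years in limma, with 1915 (6.6%) at an unadjusted p under 0.05. Among fish of 28 cm or more, 6 of 2009 and 7 of 2008, no probe of 27519 was called. Yet 3978 had an unadjusted p under 0.05, a larger share than the 6.6% at equal length. The cut at 28 cm also left only wild fish in 2008, and 5 wild fish and 1 hatchery fish in 2009. Length and origin thus changed together, and the part of each was not tested. The median size of the difference was 0.319 (log2) in these fish, against 0.225 over all 24 fish. The smallest adjusted p was 0.0769. The 26 probes called in wild fish were all higher in 2009 in these long fish too, with a median of 2.18 (log2), but these fish are largely the same individuals.

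Length itself went with the level of a few probes. Within the 17 fish of 2008, 30 of 29734 probes (0.101%) changed with fork length in limma, 20 upward and 10 downward, and 2913 (9.8%) had an unadjusted p under 0.05. The count was 9 without the slide term and 15 among the wild fish of 2008. C200R148 rose by 0.31 ± 0.045 (log2 per cm, SE, adjusted p = 0.0143) and reached -3.06 to -0.23 in the short and -2.16 to 2.77 in the long class. C048R097 rose by 0.09 ± 0.013 per cm (adjusted p = 0.0167), and its short fish (-0.10 to 0.67) lay below all its long fish (0.95 to 1.35). C188R061 fell by 0.18 per cm (SE 0.024, adjusted p = 0.00931), and C043R150 also by 0.18 per cm (SE 0.026, adjusted p = 0.0143). Apart from fish 298, the long fish of 2008 carried fish numbers 1012 to 1020, and the short class numbers 260 to 365. Length and this set of fish therefore cannot be told apart in full. For C200R148 (-2.16) and C188R061 (-0.13) fish 298 lay within the range of the short class. For C048R097 (1.04) and C043R150 (-2.13) fish 298 lay within that of the other long fish.

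The year differences of the same 4 probes moved when length was a term, and both comparisons share the fish of 2008. C200R148 differed between the years by 1.44 ± 0.935 and, at equal length, by 0.17 ± 0.576 (log2, SE). C188R061 went from -0.31 ± 0.519 to 0.45 ± 0.274, and C043R150 from -0.43 ± 0.523 to 0.24 ± 0.356. C048R097 went from 0.01 ± 0.261 to -0.30 ± 0.190. None of the 4 passed the adjusted threshold for the year in either fit.

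On the other coast the same years differed at many probes. Fall fish of the northern-mid Strait of Georgia, 21 of 2009 and 11 of 2008, differed at 5777 of 30396 probes (19%) in limma, 2635 higher and 3142 lower in 2009. These groups were of mixed origin and sex, with larger shares of hatchery fish and of males in 2009. Most of the fish of 2008 carried the stock regions Fraser or Chilliwack_R. ECVI and S_Main, carried by most of the fish of 2009, were not among the stock regions of 2008. The part of origin, sex and stock in this difference was not tested. No west coast fish entered that comparison, but several slides held fish of both coasts. Where west coast and northern-mid Strait fall fish shared a slide, they were of the same year. Among the northern-mid Strait fall fish, only fish 661 of 2008 and fish 2593 of 2009 shared a slide across the years. Year and slide can thus hardly be told apart in the Strait either. The median size of the Strait difference was 0.313 with a median SE of 0.216 (log2), and arrays on the same slide had a residual correlation of 0.159. In the Strait the axis score averaged -14.53 in 2008 and 31.45 in 2009. With the score as a term 0 of the 30396 probes were called there (3592 at an unadjusted p under 0.05). The smallest limma adjusted p was then 0.0505, near the threshold, and the median size of the difference 0.201 (log2). Among the 18 and 5 Strait fish on slides without a west coast fall fish 0 of 26871 were called (3615 unadjusted). The smallest limma adjusted p among these fewer fish was 0.0535, also near the threshold. The median size of the difference was 0.292 (log2), close to the 0.313 over all Strait fish.

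The probes called in the Strait were then read in the west coast fish. Of the 5730 measured on both coasts, 3389 (59.1%) had a west coast difference in the Strait's direction, against 54.2% of all 28329 probes measured on both. Those called higher in 2009 in the Strait went the same way for 2001 of 2602 (76.9%), with a median west coast difference of 0.25 (log2). Those called lower did so for 1388 of 3128 (44.4%), with a median of -0.049 in the Strait's direction. Of all probes with a positive Strait difference, called or not, 57.6% went the same way, and of those with a negative one 50.9%. With fork length as a term on both coasts, the shares among called probes were 81.1% for those higher and 50.6% for those lower, the latter with a median of 0.004. Without the length term, the unadjusted limma p on the west coast was under 0.05 for 391 (15%) of the 2602 called higher. It was so for 76 (2.43%) of the 3128 called lower. The share was 9.65% of all probes with a positive Strait difference, 5.56% of those with a negative one and 7.57% of all probes. Slides shared by these fish of both coasts held them from the same year, and the part of such slides in these percentages was not tested.

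The probes of largest t in the Strait were read on the west coast too. C195R050 stood at -0.95, -0.81 and -0.05 in the Strait in 2008 and at -0.26, 0.35 and 0.87 in 2009, a difference of 0.94 (limma adjusted p = 0.000215), and differed by -0.20 ± 0.275 on the west coast. C120R032 differed by 1.27 in the Strait (adjusted p = 0.000215) and by 0.28 ± 0.253 on the west coast. C038R049 differed by -1.65 (adjusted p = 0.000265) and by 0.08 ± 0.461, and C237R115 by -1.76 (adjusted p = 0.000381) and by 0.29 ± 0.574. None of the 4 west coast differences exceeded 2 SE. Of the west coast's own leading probes, C168R022 differed in the Strait by 2.57 (adjusted p = 0.000919) and C053R155 by -0.50 (adjusted p = 0.00794), each in the direction it had on the west coast. C214R148 differed there by 0.14 (adjusted p = 0.624).

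The difference between the coasts was itself tested. The year difference differed by coast at 1 of 28329 probes (0.00353%) in limma, with 5585 (19.7%) at an unadjusted p under 0.05. That probe, C057R159, stood at -0.72, 0.23 and 1.08 in the west coast fish of 2008 and at 0.64, 1.11 and 1.28 in the 6 fish of 2009 with a value. In the Strait it stood at 0.13, 0.52 and 1.12 in 2008 and at -0.85, 0.00 and 1.16 in 2009. It was thus higher in 2009 on the west coast by 0.84 (adjusted p = 0.502) and lower in the Strait by 0.55 (log2 difference of -0.55, adjusted p = 0.0259), and the difference between the 2 was 1.36 ± 0.252 (adjusted p = 0.0407). The call was lost without the slide term, with the south Strait fish added, and with fork length or the axis score as a term, while the difference stayed between 1.19 and 1.45 (log2) over the 5 alternatives that measured it. In all 303 probes were called after quantile normalization, so the count by coast depends on the processing.

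Some of the slides could be compared through other fish. Summer fish of the northern-mid Strait of 2009 lay on 4 of the 6 slides of the west coast fall fish of 2009 (6 summer fish) and on 3 of the 11 slides of those of 2008 (3 summer fish). Between these, 0 of 22241 probes (0%) were called in limma and 1185 (5.33%) had an unadjusted p under 0.05. This fit had no slide term, although some of the summer fish shared a slide. The smallest adjusted p was 0.759, and between 0.0954 and 0.336 with 1 of the group of 3 left out. The latter fits asked for fewer values a side, so these p-values do not compare on equal terms. So few fish on part of the slides leave the part of the slide in the year comparison not tested.

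Empty values were compared as well. Fisher's exact test on the number of arrays with a value called 0 of 43630 probes (0%), and 598 (1.37%) had an unadjusted p under 0.05, of which 555 had a value on a smaller share of the 2009 arrays. The smallest p that 7 against 17 arrays allow is 2.89e-06, which times the number of probes is 0.126. There were 2 probes with a value in none of the fish of 2009 and in at least 14 of the 17 of 2008, and none with a value in all 7 of 2009 and in at most 3 of 2008. A low count of fish with a value left 5200 probes out of the year test on the side of 2009 alone and 135 on the side of 2008 alone. The rule asked for values on 3 of 7 arrays of 2009 but on 3 of 17 of 2008, so these 2 counts do not compare the years on equal terms.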

How the data were processed

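Brain RNA was measured on 2-colour arrays against a pool, 1 array a fish. The authors deposited log ratios, read here as log2 of fish over pool; the labels do not state base or direction. Both are likely from the values: with 17531 probes split into 10 classes by variance, the mean ratio after back-transformation (as log2) ranged from 0.063 to 0.209 read this way and from -0.068 to 1.16 read as pool over fish. A natural log (0.2 to 0.382) lies farther from 0 but is not excluded. Folds depend on the base, counts of calls do not. A second deposited table, of unit other because its columns name none, held identical values (100%) and 18 control rows. How features were extracted, corrected and normalized, and which filter emptied values, is not given in the sources used here. Precision is limited by the number of arrays and by empty values.

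Groups came from the labels for season, place and year. Probes with 3 or more values a side (8 or more for a length slope) entered limma (version 3.58.1, R 4.3.3, with lmFit, the slide as a random block through duplicateCorrelation on 2000 probes, eBayes) and p-values were adjusted by Benjamini-Hochberg over all probes tested, with 0.05 as the threshold. The comparison of summer fish between slides had no slide term, and its fits with 1 fish left out asked for fewer values a side. Single measures used exact permutation tests and shares of empty values Fisher's exact test, both two-sided (scipy 1.17.1, Python 3.11.15). The year fits of both coasts were also run on simulated data, and no result here rests on that run. The probes named are the 2 of largest t in each direction, called or not, among those with a value on all arrays of the fit where possible; the 4 leading probes of the year difference passed no threshold and were so chosen after their values were seen, and the pair of wild fish was added likewise. The fish and lists were chosen with earlier results of these data known. Lists of genes and of brain markers could not be tested, as the sources used here pair no probe with a gene.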

Additional observations from a re-analysis of the deposited data

Results flagged for a closer look

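For C265R071, fish 3511 stood apart from the other west coast fall fish of 2009, at -2.35 (log2 ratio) against -1.09 to -0.47 in the other 6. Its gap to the nearest fish was 0.67 of the range of the group. Of 21 sets of values tested for a fish standing apart in this way, 1 had one, and chance gives about 1 in 20. Without this fish the year difference of the probe was -0.76 in place of -1.01 (log2, limma, adjusted p = 0.465 and 0.389).

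The year difference of C057R159 differed between the coasts by 1.36 (1.361 as fitted, log2, limma adjusted p = 0.0407), higher in 2009 on the west coast and lower in the Strait. It was the only such probe of 28329.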

How the results depend on the processing

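The year difference called 0 probes in limma with the array values centred, centred and scaled or quantile-normalized, with array weights, with stricter filters on empty values, with length, sex, origin or array position as a term, in fish of 28 cm or more, in females, in shared stock regions, without the 2 fish caught off the open west coast, and with the slide as a fixed term over all arrays. The year difference called 1 probe without a slide term. It called 44 when all 78 fall arrays shared 1 estimate of the spread and of the slide correlation, which was then 0.173 in place of 0.703. It called 13 with every array of the series in the fit, at a slide correlation of 0.126. The count was 26 in wild fish, 2 with the axis score as a term and 133 with that score and no slide term. Leaving out 1 fish gave 0 to 1. At equal length, 16 were called in wild fish. In wild fish, alternatives added after seeing the data gave 55 without a slide term, 13 after quantile normalization, 3 with sex, 16 with length, 67 with the axis score as a term, and 52 without fish 300 and 334, and leaving out 1 fish gave 5 to 40. The length slope called 9 probes without a slide term and 15 in wild fish. The Strait year difference called 0 on slides without a west coast fall fish and 0 with the axis score as a term. The smallest limma adjusted p was 0.0535 in the former and 0.0505 in the latter. The difference by coast called 0 without a slide term, 303 after quantile normalization, 3 with the south Strait fish added, 0 with length, 48 over probes with a value on all arrays of the fit and 0 with the axis score. The cause of these changes was not tested.

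No named probe changed direction under the alternatives of the comparison it was named for. C168R022 passed in 3 of 45 alternatives (1.49 to 2.19, log2), C214R148 in 5 (0.76 to 1.43), C265R071 in 1 (-1.16 to -0.38) and C053R155 in 2 (-1.37 to -0.64). C094R044 and C089R155 passed in all 24 alternatives of the wild fit, from which they had been chosen by their t. These alternatives were all added after seeing the data, and 18 of them left out 1 fish. Over all 24 fish neither was called (limma adjusted p = 0.741 and 0.662). In the Strait, C195R050, C120R032, C038R049 and C237R115 each lost their call in 2 of 5 alternatives. The length slope of C048R097 lost its call in 2 of 4, while those of C200R148, C188R061 and C043R150 kept theirs in all 4. The likeness of fish within years stayed without a call after quantile normalization and with Spearman's rho. The 7 fish of 2009 on 6 slides of their own limit every year difference here, and ratios to a pool bound folds only if the log base is as read. No paired analysis was possible because the replicate numbers are fish numbers that the years do not share.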
